A study of Mus musculus with 12 samples.

Results

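The genes followed here, in the retina of wild-type mice, are 10 genes of pericellular proteolysis chosen by gene symbol: the 4 tissue inhibitors of metalloproteinases (Timp1, Timp2, Timp3 and Timp4), 5 matrix metalloproteinases (Mmp2, Mmp3, Mmp9, Mmp14 and Mmp15) and the protease Adamts1. All 10 were found among the 25124 genes listed in both expression tables. The libraries are bulk retina polyA RNA-Seq, 12 in 6 groups of 2, from WT C57BL/6J mice, with the retina of each eye homogenised for RNA. In the single-elevation series, 1 eye was held at an intraocular pressure (IOP) of 30 mmHg for 1 h and the untreated contralateral eye was the control, at 3 months (3mo IOP, 3mo control) and 18 months (18mo IOP, 18mo control), with retinas taken on day 2. The repeated series had the elevation 4 times at intervals of 2 weeks, starting at 3 months, with retinas taken on day 2 after the last (4xIOP, 4xIOP control). Pressure was raised by infusing saline through a needle in the anterior chamber. The control eyes are labelled untreated, and whether a needle entered them is not given for these samples, so the part of the puncture was not tested. Nothing in the labels says which treated and control libraries come from the same animal, and the p-values below therefore measure the spread between samples only.

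Matrix metalloproteinases are zinc-dependent proteases that cut collagens, laminins, growth factor carriers and cell surface proteins, and they are made as inactive precursors. Some are secreted (Mmp2, Mmp3, Mmp9), and others are anchored in the membrane (Mmp14, Mmp15), where Mmp14 activates the Mmp2 precursor with the help of Timp2. ADAMTS proteases are secreted relatives with thrombospondin repeats, and Adamts1 cuts aggrecan, versican and other proteoglycans. TIMPs block the active site of these enzymes, and Timp3 differs from the others in binding firmly to the extracellular matrix and in inhibiting ADAM and ADAMTS proteases as well. In the eye, TIMP3 is known as a component of Bruch's membrane.

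In these retinas Timp1 had few reads in untreated eyes and was called higher 2 days after IOP elevation, at both ages and after repeated elevation. Between untreated eyes of the 2 ages, Timp2, Mmp14 and Adamts1 were higher at 18 months. Adamts1 and Mmp14 were also higher after repeated elevation. Mmp2, Mmp9, Mmp15 and Timp3 were not called in any comparison, and Mmp3 and Timp4 were too low to be tested.

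Of the TIMP genes, 3 lie within or across a synapsin gene on the opposite strand, a family of synaptic vesicle proteins that neurons of the retina express, which makes their position relevant to counting. On mm10, Timp1 (NM_011593) occupies chromosome X from 20870166 to 20874737 on the plus strand, inside intron 5 of the 12 introns of Syn1. Timp3 (NM_011595) occupies chromosome 10 from 86300412 to 86349505 and lies in intron 6 of 13 of Syn3. Neither shares an exon base with its synapsin. Timp4, as counted, occupies chromosome 6 from 115244446 to 115252205, inside Syn2. A longer Timp4 model in the GENCODE M21 annotation, from 115241892, shares 90 exon bases with Syn2, and these lie outside the counted interval. Per the study's methods the libraries were strand-specific and counting used 1 strand. How completely the strands were separated was not tested. Timp2 (NM_011594, chromosome 11, 118301061 to 118355411) overlaps Cep295nl on its own strand, and strand cannot separate these 2 genes. The same transcript served both tables for 9 of the 10 genes, the exception being Timp4.

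**Figure D1:**
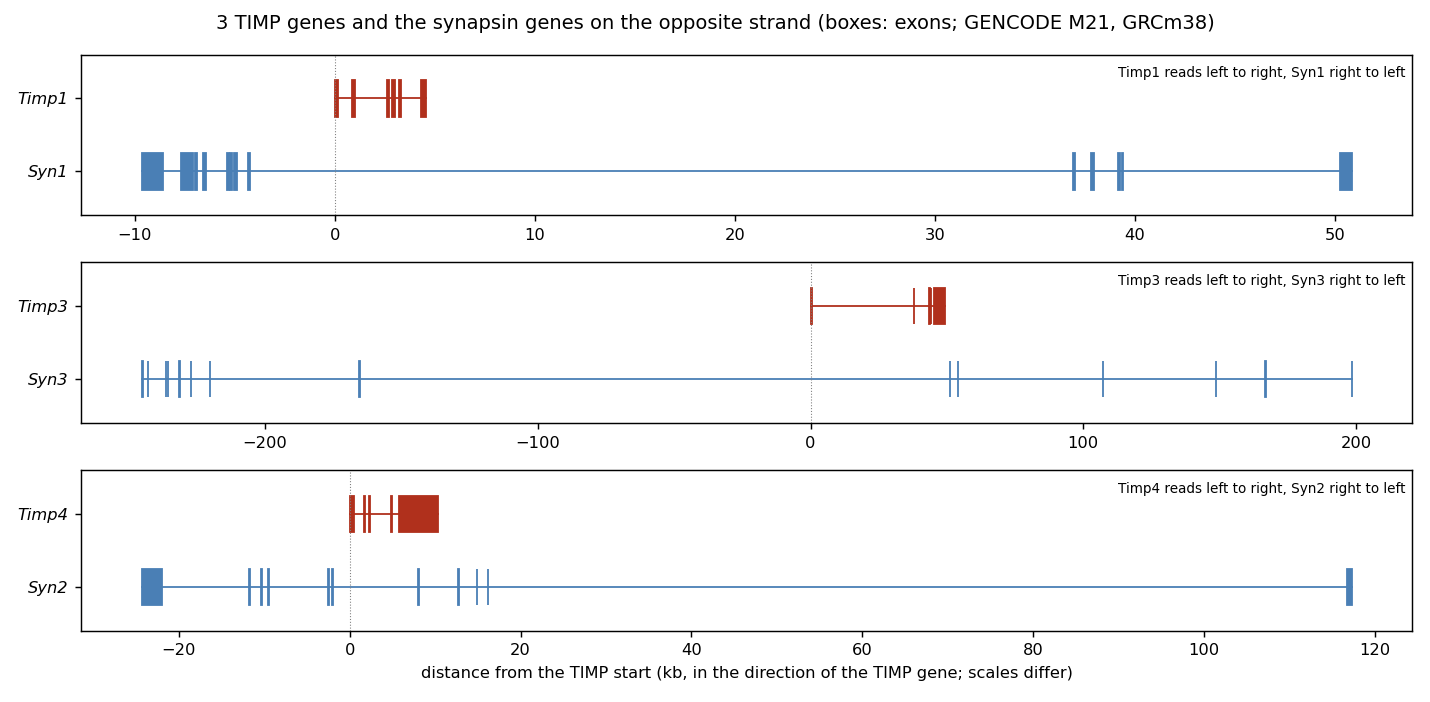
Maps of Timp1, Timp3 and Timp4 with the synapsin gene on the opposite strand, with boxes for exons and lines for introns, against distance from the TIMP start in kb (GENCODE M21, GRCm38, scales differ between panels). Timp1 and Timp3 sit between exons of Syn1 and Syn3, and the GENCODE model of Timp4, longer than the counted one, shares 90 exon bases with Syn2.

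The synapsin genes were measured alongside as neighbours of the TIMP genes. Syn1 stood at 10.2 and 5.14 FPKM (fragments per kilobase of transcript, scaled to the mapped tags of the library) in 3mo control and at 9.30 and 13.1 FPKM in 3mo IOP, groups that overlapped. In 18mo control Syn1 had 8.21 and 15.01 FPKM and in 18mo IOP 14.6 and 6.03 FPKM, again overlapping. None of Syn1, Syn2 and Syn3 was called in any of the 4 comparisons by limma, 1 of these 12 values had an unadjusted p under 0.05 (Syn1 in 4xIOP, log2 fold change 0.54, adjusted p = 0.18), and voom called none.

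Promoter sequences were at hand for 8 of the 10 genes, all but Mmp2 and Mmp9, from RefSeq on GRCm38.p6. They cover 250 bases before to 50 bases after the start of each gene. They were searched on both strands for TGANTCA, the site of AP-1, the Fos and Jun factors long studied on MMP promoters, and for TTCNNNGAA, the site of STAT factors. The AP-1 letters occurred in 7.81% of 32851 promoters of this length and in 1 of the 8, that of Mmp3, 46 bases before its start. The STAT letters occurred in 8.30% of all promoters and in none of the 8. The upstream 250 bases of Mmp3 (chr9:7445572-7445821, plus strand) and of Timp1 (chrX:20869916-20870165, plus strand) are shown 5′ to 3′, the first for its AP-1 letters in capitals and the second because Timp1 had the largest rises after IOP elevation of the 8 tested genes.
Mmp3: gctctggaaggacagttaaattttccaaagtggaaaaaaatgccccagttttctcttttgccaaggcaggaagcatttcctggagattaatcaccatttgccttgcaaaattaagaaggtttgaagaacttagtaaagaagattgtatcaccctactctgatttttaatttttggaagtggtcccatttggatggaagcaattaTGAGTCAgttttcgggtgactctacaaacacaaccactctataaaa
Timp1: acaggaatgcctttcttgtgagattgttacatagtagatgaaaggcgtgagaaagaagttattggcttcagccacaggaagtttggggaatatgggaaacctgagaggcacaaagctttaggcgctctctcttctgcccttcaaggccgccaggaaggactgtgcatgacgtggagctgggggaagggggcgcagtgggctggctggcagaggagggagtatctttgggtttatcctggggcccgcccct
The GC content of the whole 300-base windows was 40% for Mmp3, 55.0% for Timp1, 64.7% for Adamts1, 67.0% for Timp3 and 68.7% for Timp2, against a median of 52.7% over all promoters. The windows of Mmp14 and Mmp15 had 56.0% and 66.0% and that of Timp4 had 53.3%.

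Levels are deposited as FPKM, from libraries of 39766238 to 59455053 mapped tags. Between 66.0% and 71.5% of the tags were exonic in the single series and between 44.2% and 53.7% in the repeated series, so levels are compared within a series only. All values checked (4506 to 7972 a library) came to whole reads, which gives the counts quoted for low genes. The 2 libraries of 3mo control differed in transcript length: short messages (below 1000 bases) had a median level 1.89 and 4.70 times that of long ones (from 4000 bases), against 1.28 and 1.21 times in 18mo control. Rod genes, which mark the retina, summed to between 4668 and 23966 FPKM over 7 markers in the 12 libraries, and their levels by group stand with the other cell types. A gene was tested where its mean reached 0.5 FPKM over a series, on log2(FPKM + 0.5) with limma. Calls required an adjusted p (Benjamini-Hochberg, over all tested genes) no higher than 0.05 together with a log2 difference of 1 or more in either direction. This scale understates the change of low genes.

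The filter on low values left 8 of the 10 genes in both series, all but Timp4 and Mmp3. In 3mo IOP against 3mo control 1 of the 8 tested genes was called higher (Timp1), against 0.568% of all tested genes called higher and 0.575% called in either direction. In 18mo IOP against 18mo control the same gene was called higher, against 0.117% of all tested genes called higher and 0.124% in either direction. In 4xIOP against its control 3 of 8 were called higher (Timp1, Mmp14 and Adamts1), against 5.45% of all tested genes called higher and 6.15% in either direction. In 18mo control against 3mo control 3 of 8 were called higher (Timp2, Mmp14 and Adamts1), where 11.6% of all tested genes were called higher and 23.2% in either direction. None of the 8 was called lower in these 4 comparisons by limma or by voom (limma's fit for read counts, here on the recovered reads), and none was lower at an unadjusted p under 0.05. Over all tested genes 0.00728% were called lower in 3mo IOP, 0.00728% in 18mo IOP, 11.6% with age and 0.693% in 4xIOP. A member that passed the filter through the group where it is high was bound to differ, so these counts describe the genes and give no support beyond the single tests.

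**Figure D2:**
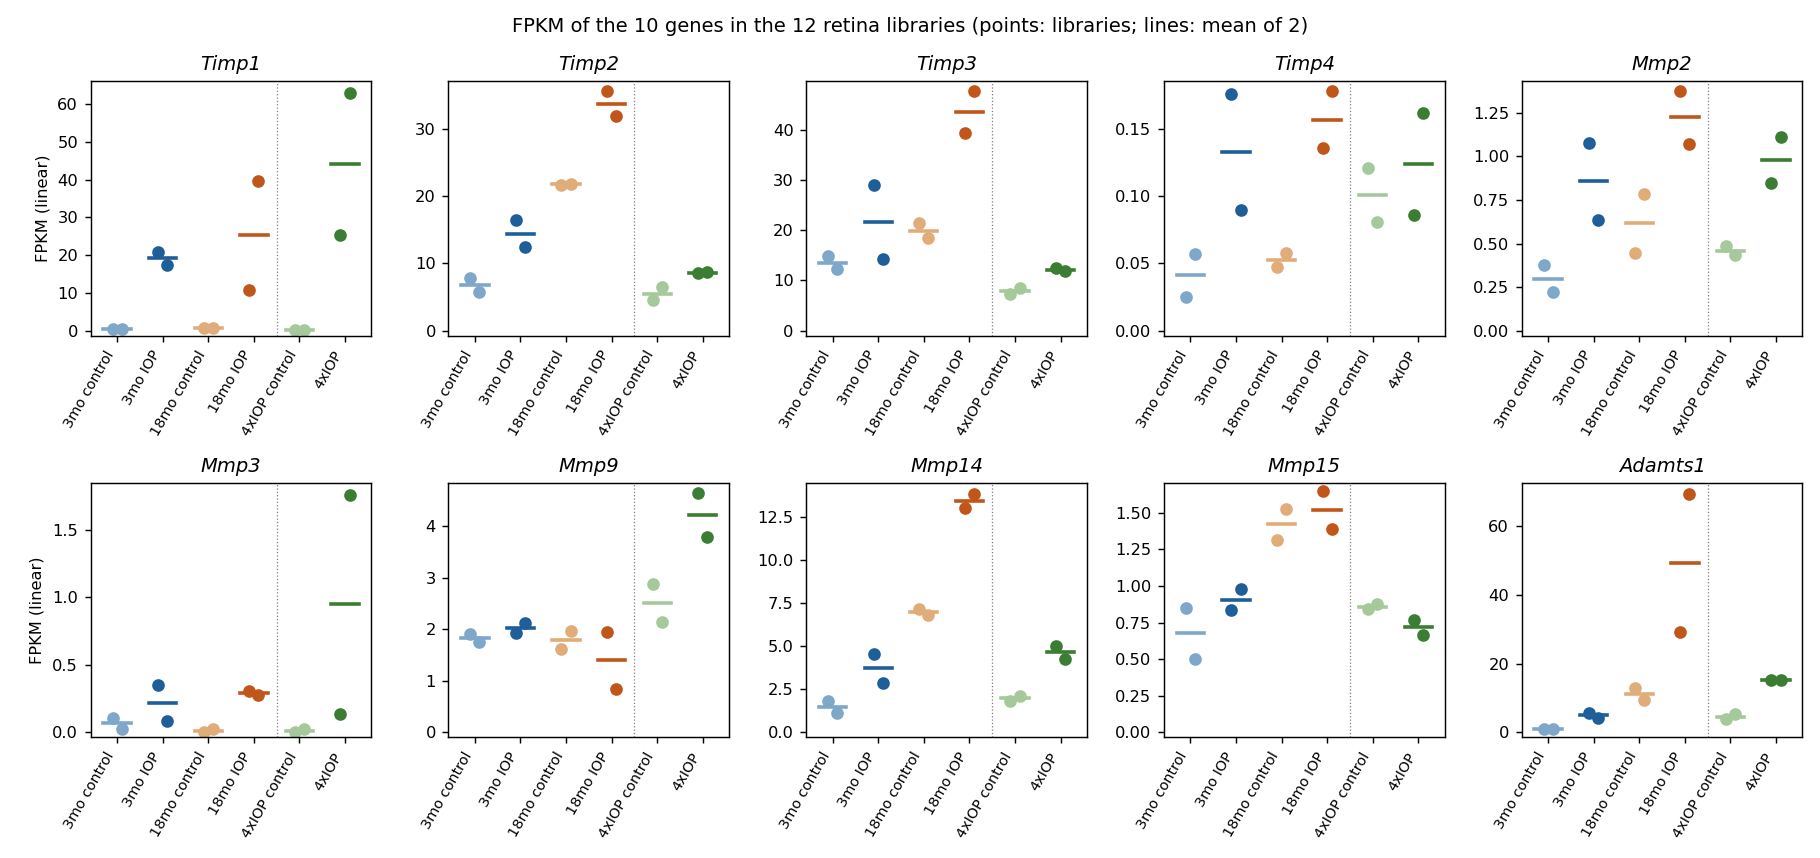
FPKM of each of the 10 genes (vertical axis, linear, a scale per panel) in the 6 groups (horizontal axis), with a point per library and a line at the mean of 2; the dotted line separates the series. Timp1 stands at 0.778 FPKM or lower in every control library and at 10.9 FPKM or higher in every IOP library.

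Among the inhibitors, Timp1 had few reads in untreated eyes and was above its controls in every IOP library. In 3mo control it stood at 0.329 and 0.310 FPKM, from 12 and 13 reads, and in 3mo IOP at 20.96 and 17.4 FPKM, from 1001 and 637 reads. The groups lay far apart, and the read counts gave a ratio of 60.9 with a 95% interval of 41.1 to 94.4 that covers counting error only (exact binomial). Its fitted log2 fold change was 4.58 ± 0.48 (SE, n = 2 and 2 libraries, limma adjusted p = 0.018), the rise of Timp1 that was called at 3 months. It passed in 8 of 10 alternatives, the exceptions being no filter on low values (adjusted p = 0.068) and voom (0.20). The call was lost without 3mo control replicate 1 (adjusted p = 0.12), without 3mo IOP replicate 1 (0.13) and without 3mo IOP replicate 2 (0.062), and the fold change stayed between 4.45 and 4.71 in these fits.

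At 18 months Timp1 stood at 0.727 and 0.778 FPKM in control retinas, from 28 and 32 reads, and at 10.9 and 39.6 FPKM in IOP retinas. Both IOP libraries were above both controls, but they differed from each other by more than the 3mo IOP pair did. The ratio of reads was 34.3 (95% counting interval 26.5 to 45.0) and the fitted log2 fold change 4.09 ± 0.48 (SE, n = 2 and 2, limma adjusted p = 0.044). This call lay close to the threshold. It was lost in 7 of 10 alternatives, with an adjusted p between 0.030 and 0.22 over all 10, and without either 18mo control library (0.30 without replicate 1 and 0.31 without replicate 2). The interaction of IOP with age was -0.49 ± 0.68 (SE, 95% interval -2.06 to 1.08, limma adjusted p = 1.00), so a difference in the response of Timp1 between the ages was not detected, within this wide interval.

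After 4 elevations Timp1 again lay above its controls. The 4xIOP control retinas held 2 and 8 reads of it (0.0570 and 0.215 FPKM), and the 4xIOP retinas held 1257 and 2342 reads (25.5 and 63.0 FPKM). The ratio of reads was 300.2 (95% counting interval 163 to 627). This interval does not cover the spread between the control libraries, which differed 3.77 times in FPKM. The log2 fold change was 6.01 ± 0.33 (SE, n = 2 and 2, limma adjusted p = 1.8e-07), and it passed the thresholds in all 9 alternatives. Timp1 averaged 0.136 FPKM in these controls and passed the filter of 0.5 FPKM through the 4xIOP libraries. A difference was therefore bound to appear, and the alternatives reuse the same libraries, so they add no support.

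Between the untreated eyes of the 2 ages, Timp1 had 25 reads at 3 months and 60 at 18 months in all, a ratio of 2.36 with a 95% counting interval of 1.46 to 3.94. Both 18mo control libraries were above both 3mo control libraries. The log2 fold change was 0.61 ± 0.48 (SE, limma adjusted p = 0.32), which did not pass. With the trend of each library with transcript length removed it was 1.48 (adjusted p = 0.041). Timp1 is the shortest of the 10 transcripts, at 879 bases, and the others run from 1788 to 4872 bases.

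Timp2, the inhibitor that also takes part in activating Mmp2, rose with age. Its level was 7.87 and 5.67 FPKM in 3mo control and 21.7 FPKM in both 18mo control libraries, a log2 fold change of 1.63 ± 0.21 (SE, n = 2 and 2, limma adjusted p = 0.0048). The groups did not overlap, and the call held in all 10 alternatives and without each of the 4 libraries in turn. With the transcript length trend removed the fold change was 1.42.

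After a single elevation Timp2 stood at 16.4 and 12.4 FPKM in 3mo IOP and at 35.5 and 31.8 FPKM in 18mo IOP. Both IOP groups lay above their controls. The log2 fold changes were 1.03 ± 0.21 at 3 months (limma adjusted p = 0.094) and 0.62 ± 0.21 at 18 months (adjusted p = 0.33), and neither passed. With the length trend removed the value at 3 months was 1.07 (adjusted p = 0.036), which did. Repeated elevation gave Timp2 levels of 4.59 and 6.40 FPKM in controls and of 8.49 and 8.64 FPKM in 4xIOP, a log2 fold change of 0.61 ± 0.22 (adjusted p = 0.14).

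Timp3, the matrix-bound inhibitor, was the most abundant of the 10 transcripts per kilobase in the untreated eyes of 3-month-old mice and in the repeated-series controls. It stood at 14.8 and 12.2 FPKM in 3mo control and at 28.9 and 14.3 FPKM in 3mo IOP. In 18mo control it had 21.4 and 18.5 FPKM and in 18mo IOP 39.4 and 47.7 FPKM. The groups overlapped at 3 months and lay apart at 18 months. The log2 fold changes of 0.58 ± 0.31 (3 months, limma adjusted p = 0.73) and 1.10 ± 0.31 (18 months, adjusted p = 0.21) did not pass.
The repeated series gave 7.31 and 8.52 FPKM in controls and 12.4 and 11.9 FPKM in 4xIOP (log2 fold change 0.59 ± 0.22, adjusted p = 0.15). With age, Timp3 differed by 0.55 ± 0.31 (adjusted p = 0.17).

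Timp4 was barely measured, with between 3 and 31 reads a library, and it was not tested. Its reads numbered 3 and 8 in 3mo control against 28 and 11 after the elevation, and 6 and 8 in 18mo control against 22 and 31 after it. The ratio of reads was 3.30 (95% counting interval 1.66 to 7.14) at 3 months and 3.00 (1.64 to 5.85) at 18 months. In the repeated series the controls held 14 and 10 reads and the 4xIOP retinas 14 and 20, a ratio of 1.18 (0.680 to 2.08), whose interval includes 1. So did that of 18mo control against 3mo control, at 1.25 (0.529 to 3.05).

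The make-up of the summed TIMP transcripts is given by library, as a description. Timp1 made up 1.43% and 1.70% of the summed FPKM of the 4 genes in 3mo control and 31.6% and 39.4% in 3mo IOP. In 18mo control its share was 1.66% and 1.90%, and in 18mo IOP it was 12.6% and 33.2%. The repeated series went from 0.472% and 1.41% in controls to 54.9% and 75.3% in 4xIOP, where Timp1 was the most abundant TIMP transcript. The summed level was 23.0 and 18.2 FPKM in 3mo control against 66.4 and 44.1 FPKM in 3mo IOP. At 18 months it was 43.8 and 41.0 FPKM without and 85.9 and 119 FPKM with the elevation. It was 12.1 and 15.2 FPKM in 4xIOP control against 46.4 and 83.8 FPKM in 4xIOP. These sums describe the libraries and were not tested. By age, Timp2 was 34.2% and 31.0% of the sum in 3mo control and 49.4% and 53.0% in 18mo control.

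**Figure D3:**
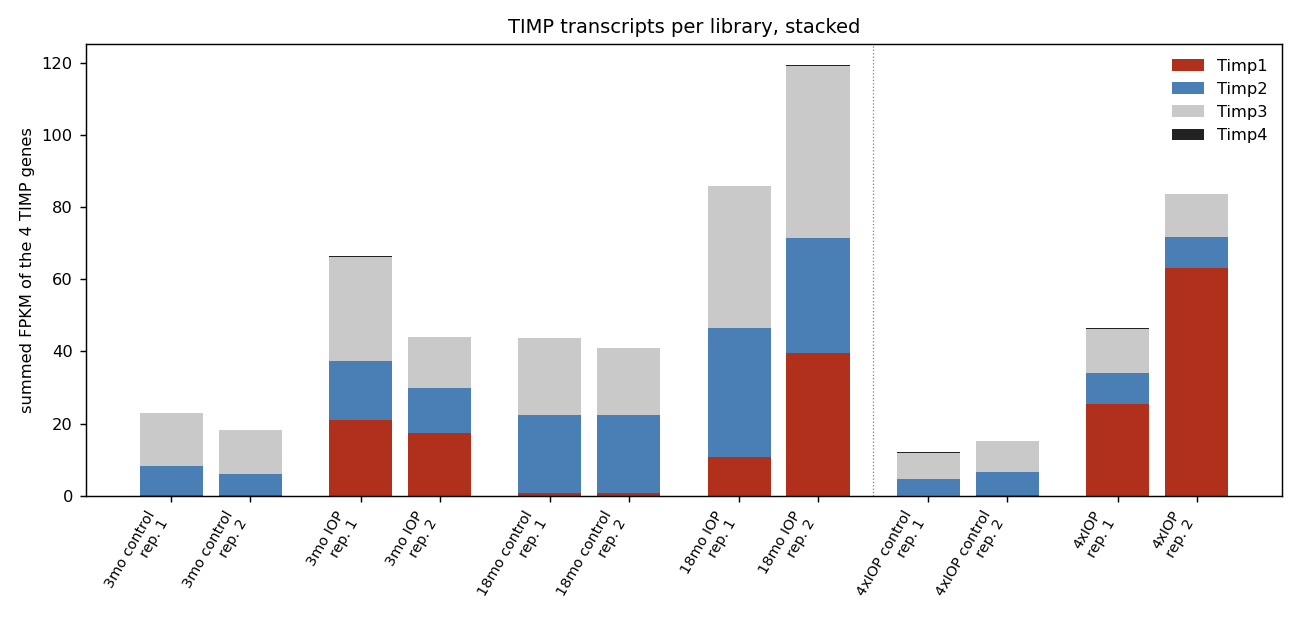
Summed FPKM of the 4 TIMP genes in each library (vertical axis, linear from 0), stacked by gene, with the libraries named by group and replicate on the horizontal axis. The Timp1 share is at most 1.90% in each control library and between 12.6% and 75.3% in the IOP libraries.

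Of the secreted proteases, 2 were tested (Mmp2 and Mmp9), and neither was called in any comparison by limma or voom. Mmp2, the gelatinase that cuts basement membrane collagen, had 0.378 and 0.219 FPKM in 3mo control and 1.08 and 0.636 FPKM in 3mo IOP. It had 0.448 and 0.783 FPKM in 18mo control and 1.38 and 1.07 FPKM in 18mo IOP. The IOP libraries lay above their controls in both cases and also in the repeated series, with 0.485 and 0.433 FPKM in controls and 0.850 and 1.11 FPKM in 4xIOP. The log2 fold changes were 0.75 ± 0.27, 0.64 ± 0.27 and 0.62 ± 0.25 (limma adjusted p = 0.43, 0.51 and 0.21), and the value with age was 0.47 ± 0.27 (adjusted p = 0.18). Each of the 3 values after IOP had an unadjusted p under 0.05, and voom called none of them.

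Mmp9, the other gelatinase, had no common direction. It stood at 1.91 and 1.76 FPKM in 3mo control and 1.93 and 2.13 FPKM in 3mo IOP (log2 fold change 0.12 ± 0.28, limma adjusted p = 1.00, and -0.05 under median-of-ratios size factors). In 18mo control it had 1.62 and 1.96 FPKM and in 18mo IOP 1.95 and 0.841 FPKM, groups that overlapped (-0.33 ± 0.28, adjusted p = 0.96). The low value belonged to the 18mo IOP library that had the higher Timp1, and without it the fold change was 0.10. In the repeated series Mmp9 stood at 2.87 and 2.15 FPKM in controls and 4.65 and 3.78 FPKM in 4xIOP, without overlap (0.65 ± 0.21, adjusted p = 0.089). Its value with age was -0.03 ± 0.28 (adjusted p = 0.94).

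Mmp3, or stromelysin 1, the gene with the AP-1 letters printed above, was at or under the limit of 3 reads in each 18mo control and 4xIOP control library and was not tested. It had 8 and 2 reads in 3mo control and 34 and 6 in 3mo IOP, a ratio of 3.72 (95% counting interval 1.83 to 8.34) between groups whose libraries overlapped in FPKM. In 18mo control it had 0 and 2 reads and in 18mo IOP 30 and 29, a ratio of 23.4 (6.19 to 198). Between the untreated eyes the ratio of 18 to 3 months was 0.197 (0.0210 to 0.924), from 2 reads against 10, and the libraries of the 2 ages overlapped in FPKM. The 4xIOP controls held 0 and 2 reads, and the 4xIOP retinas held 14 and 133, a ratio of 61.3 (16.7 to 511). Most of the reads in 4xIOP came from replicate 2, at 1.76 FPKM against 0.139 FPKM in replicate 1. These intervals cover counting error and not the spread between libraries.

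The membrane-anchored Mmp14, which activates the Mmp2 precursor at the cell surface, rose with age and after repeated elevation. It stood at 1.81 and 1.14 FPKM in 3mo control and at 7.14 and 6.81 FPKM in 18mo control, a log2 fold change of 1.94 ± 0.24 (SE, n = 2 and 2, limma adjusted p = 0.0048). This call held in all 10 alternatives and without each of the 4 libraries in turn, and it was 1.71 with the length trend removed. A single elevation gave 4.56 and 2.88 FPKM at 3 months and 13.0 and 13.8 FPKM at 18 months, above the controls of each age without overlap. The log2 fold changes of 1.09 ± 0.24 (adjusted p = 0.13) and 0.90 ± 0.24 (adjusted p = 0.21) did not pass.

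In the repeated series Mmp14 had 1.83 and 2.12 FPKM in controls and 5.02 and 4.24 FPKM in 4xIOP. The log2 fold change was 1.05 ± 0.20 (SE, n = 2 and 2, limma adjusted p = 0.0037). It lies just inside the fold threshold and passed in 5 of 9 alternatives, with values of 0.94 under median-of-ratios size factors and 0.89 under quantile normalization. The call was also lost without 4xIOP control replicate 1 (0.97, adjusted p = 0.077) and without 4xIOP replicate 1 (0.94, adjusted p = 0.067).

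Mmp15, a second membrane-type protease, stayed within 0.501 to 1.65 FPKM in all 12 libraries. It had 0.850 and 0.501 FPKM in 3mo control and 1.31 and 1.53 FPKM in 18mo control, a log2 difference of 0.72 ± 0.23 (limma, adjusted p = 0.033) that is under the fold threshold and was called in 1 of 9 alternatives (1.01 with a pseudocount of 0.1). Under IOP it differed from control by 0.27 ± 0.23 at 3 months (adjusted p = 0.93), 0.07 ± 0.23 at 18 months (adjusted p = 1.00, and -0.02 under median-of-ratios size factors) and -0.16 ± 0.24 in the repeated series (adjusted p = 0.91). Its 3mo IOP and 18mo IOP libraries overlapped with their controls, and the 4xIOP libraries, at 0.769 and 0.665 FPKM, lay below both of theirs, at 0.841 and 0.877 FPKM.

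Adamts1, the proteoglycan-cutting protease, had the largest difference with age of the 8 tested genes. Its level was 1.05 and 1.00 FPKM in 3mo control and 12.8 and 9.29 FPKM in 18mo control. The log2 fold change was 2.90 ± 0.37 (SE, n = 2 and 2, limma adjusted p = 0.0048), with a 95% interval of 2.05 to 3.76. It rose in all 10 alternatives and without each library in turn, and it was 2.56 with the length trend removed.

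A single elevation gave Adamts1 levels of 5.72 and 4.21 FPKM in 3mo IOP and of 29.2 and 69.2 FPKM in 18mo IOP, each pair above its controls. The log2 fold changes were 1.83 ± 0.37 (limma adjusted p = 0.093) and 1.99 ± 0.37 (adjusted p = 0.10), and neither passed. In a fit of the 3-month libraries alone the first passed (adjusted p = 0.038), and without 18mo IOP replicate 1 the second did (2.61, adjusted p = 0.0082). Without 18mo IOP replicate 2 it was 1.38 (adjusted p = 0.27), and in both of these fits the lone 18mo IOP library is assumed to vary like the other groups. The interaction of IOP with age was 0.17 ± 0.52 (95% interval -1.04 to 1.37, adjusted p = 1.00). In 4xIOP Adamts1 rose from 3.74 and 5.32 FPKM in controls to 15.2 and 15.4 FPKM, a log2 fold change of 1.67 ± 0.23 (adjusted p = 0.00028) that passed in all 9 alternatives.

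**Figure D4:**
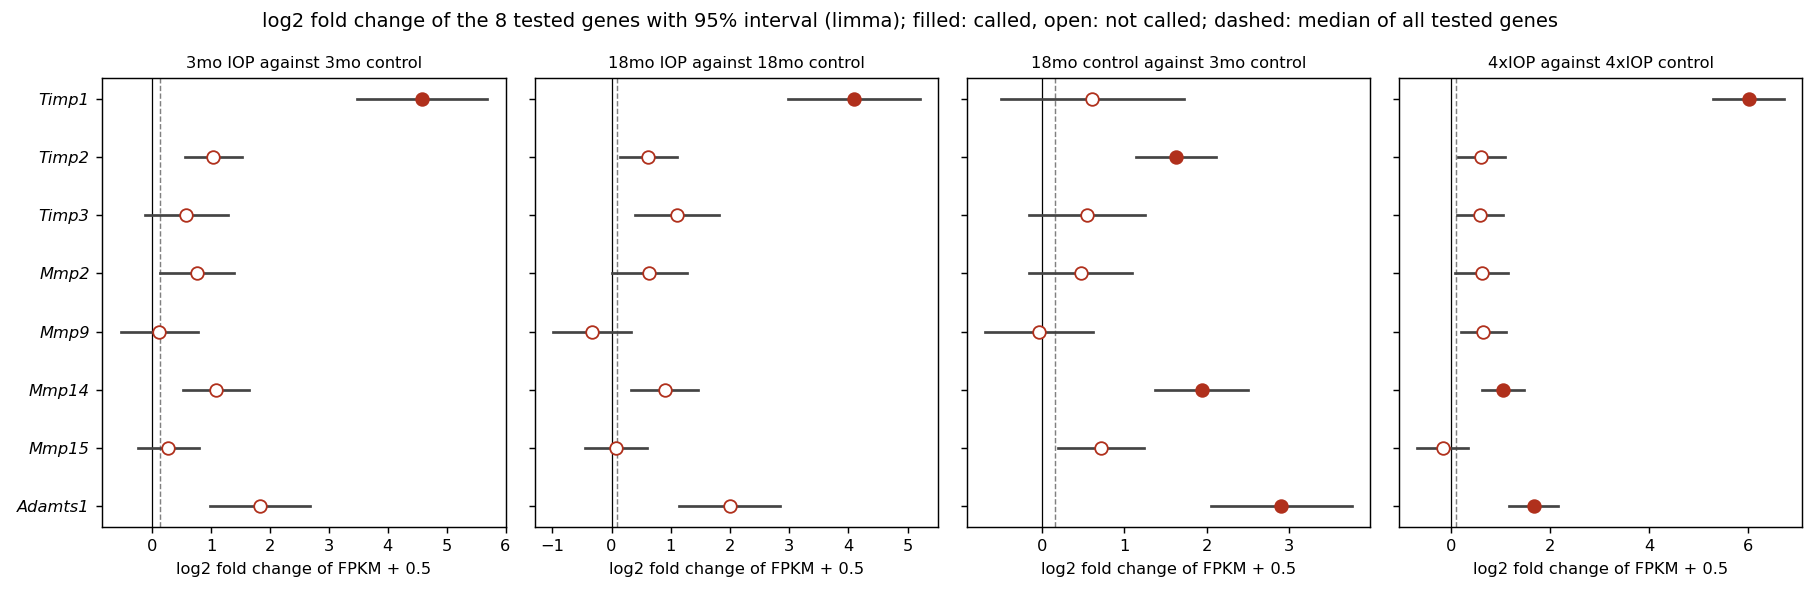
Log2 fold change of FPKM + 0.5 (horizontal axis, a scale per panel) for the 8 tested genes in 4 comparisons, with 95% intervals from limma; filled points were called and the dashed line is the median of all tested genes. Timp1 is called in the 3 IOP comparisons, Timp2, Mmp14 and Adamts1 are called with age, and Mmp14 and Adamts1 also in 4xIOP.

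Set side by side, the median log2 difference of the 8 tested genes was 0.89 in 3mo IOP, 0.77 in 18mo IOP, 0.67 with age and 0.64 in 4xIOP, beside 0.13, 0.09, 0.16 and 0.10 over all tested genes. The 18mo IOP and age comparisons share the 18mo control libraries, and the 3mo IOP and age comparisons share the 3mo control libraries, so their values are not independent. Median-of-ratios size factors moved the median of all genes to -0.05, -0.03, 0.01 and -0.02 in the same order. The libraries of the first group named (IOP, or 18mo control with age) lay above those of the other for 6, 6, 7 and 7 of the 8 genes, where this held for 28.6%, 36.5%, 45.7% and 27.7% of all tested genes. In 4xIOP the remaining gene, Mmp15, lay below its controls without overlap, as did 12.7% of all tested genes. None of the 8 passed the interaction of IOP with age by limma and none had an unadjusted p under 0.05 in it. Over all tested genes 0% were called for the interaction, 218 had an unadjusted p under 0.05, and voom called 0 genes with 145 under 0.05.

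The ratio of summed TIMP to summed MMP transcripts (5 MMPs) describes both sides at once, without a test. It was 4.56 and 5.01 in 3mo control and 7.58 and 6.58 in 3mo IOP, without overlap. In 18mo control it was 4.17 and 3.69, and in 18mo IOP 4.70 and 6.85. The repeated series gave 2.00 and 2.72 in controls and 4.06 and 7.24 in 4xIOP. Mmp14 made up 35.8% and 31.4% of the MMP sum in 3mo control and 67.9% and 61.3% in 18mo control, and Mmp9 made up 37.7% and 48.2% of it at 3 months and 15.4% and 17.7% at 18 months. These are shares of transcripts and say nothing of active enzyme.

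The other genes of the pathway were counted by list: 18 further MMPs, 18 further ADAMTS genes, 9 ADAM proteases, 4 other inhibitors, 7 genes of the plasminogen system and 4 lecticans, 60 in all. In each series 20 of them reached the level for testing. In 3mo IOP 1 of 20 was called higher, beside 0.568% of all tested genes. This was Plau, the urokinase of the plasminogen system, which activates MMP precursors. It had 0.0210 and 0.0360 FPKM in 3mo control and 1.72 and 0.937 FPKM in 3mo IOP (log2 fold change 1.76 ± 0.26, limma adjusted p = 0.032). The call was lost without 3mo control replicate 1 (adjusted p = 0.15), without 3mo IOP replicate 1 (0.27) and without 3mo IOP replicate 2 (0.062). It passed in 3 of 9 alternatives, with an adjusted p between 0.022 and 0.11 over the 9, and voom called none of the 20.

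In 18mo IOP none of the 20 was called by limma and none by voom, and 5 had an unadjusted p under 0.05. In 4xIOP 2 of 20 were called higher, beside 5.45% of all tested genes. A2m, the protease inhibitor alpha-2-macroglobulin, stood at 0.505 and 1.17 FPKM in controls and 19.0 and 16.8 FPKM in 4xIOP (log2 fold change 3.83 ± 0.24, limma adjusted p = 5.7e-07). The aggrecan-cutting Adamts5 differed by 1.05 ± 0.19 (adjusted p = 0.0034). It passed in 6 of 9 alternatives, the exceptions being a pseudocount of 1, median-of-ratios size factors and quantile normalization (fold changes of 0.93, 0.93 and 0.88). The call was also lost without 4xIOP control replicate 1 (adjusted p = 0.069) and without 4xIOP replicate 2 (0.066).

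With age 8 of the 20 were called higher and none lower by limma, beside 11.6% of all tested genes called higher, and voom called Mmp16 and Vcan lower. The largest were Plat, the tissue plasminogen activator, at 1.64 and 1.40 FPKM in 3mo control and 6.45 and 5.72 FPKM in 18mo control (log2 fold change 1.70 ± 0.27, limma adjusted p = 0.0056), Plau (1.42 ± 0.26, adjusted p = 0.0067) and the ADAM protease Adam15 (1.26 ± 0.28, adjusted p = 0.011). By list, 3 of 4 tested plasminogen genes, 2 of 4 ADAMTS genes, 2 of 5 ADAM proteases and 1 of 2 other inhibitors were called. None of the 4 tested further MMPs was called by limma, although 2 had an unadjusted p under 0.05 and voom called 2. Plau was under the fold threshold with a pseudocount of 1 (0.90) and lost its call without 18mo control replicate 2 (adjusted p = 0.052), and Adam15 did so without the same library (0.076) and without 3mo control replicate 2 (fold change 0.84).

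**Figure D5:**
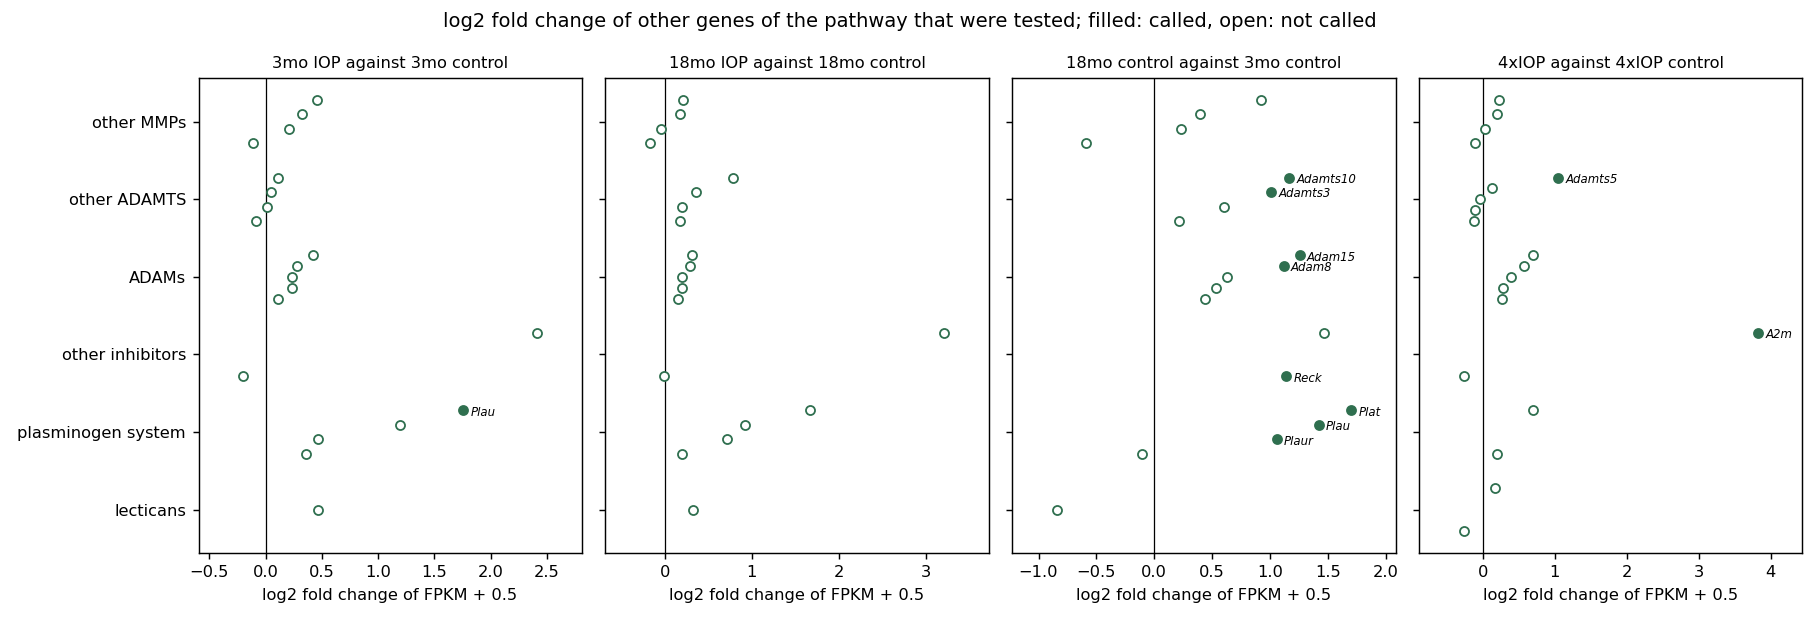
Log2 fold change of FPKM + 0.5 (horizontal axis, a scale per panel) for the other tested genes of the pathway, by list (vertical axis), in 4 comparisons; filled points were called. Called points lie to the right of 0 in each panel, and the panel for 18mo IOP has none.

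Markers of other cell types differed between the same groups, and in bulk retina fewer cells of a type and less RNA per cell cannot be told apart. With age all 8 endothelial markers were called higher, their summed level going from between 13.0 and 14.8 FPKM to between 76.1 and 80.1 FPKM. All 9 tested markers of the retinal pigment epithelium were called lower, from between 200.1 and 215.9 FPKM in 3mo control to between 3.61 and 11.7 FPKM in 18mo control, and 5 of 7 ganglion cell markers and 1 of 7 rod markers were called lower, beside 11.6% of all tested genes. Also called higher with age were 3 of 8 Muller glia markers, 4 of 9 tested markers of microglia and leukocytes and 3 of 6 tested markers of pericytes and smooth muscle, where 11.6% of all tested genes were called higher. Cdh5, Tek, Vwf, Kcnj8 and Ptprc averaged under 0.5 FPKM in both 3-month groups. Rpe65, Lrat, Mlana, Tyrp1, Slc16a8 and Pou4f2 did so in both 18-month groups. Such markers passed the filter through the age where they are high and were bound to differ. These marker counts are therefore descriptions only. The part of these cell types in the differences of Timp2, Mmp14 and Adamts1 with age was not tested. Over all genes the age comparison called 1595 higher and 1590 lower, and 1061 and 1971 under median-of-ratios size factors, while the 3 genes were called under both.

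In 3mo IOP the smooth muscle genes Acta2 and Tagln were called higher by limma, 2 of 6 tested on their list beside 0.568% of all tested genes. Voom called none of the 6. The summed smooth muscle and pericyte list went from between 10.6 and 11.6 FPKM to between 44.3 and 100.2 FPKM. Of the pigment epithelium list, which also holds pigment cell genes, Mlana alone was called higher in 3mo IOP by limma. The pigment cell genes Pmel (mean 5.88 FPKM in controls and 51.7 FPKM after IOP, adjusted p = 0.16) and Tyrp1 (7.43 and 53.0 FPKM, adjusted p = 0.11) also lay above their controls without overlap. The other 6 of the 9 tested genes had a negative fold change, among them Rpe65 at -0.70, and the median was -0.21. In 18mo IOP the smooth muscle list stood at 42.4 to 54.7 FPKM against 38.2 to 42.0 FPKM in 18mo control, with none of its 6 tested genes called and 1 at an unadjusted p under 0.05. In 4xIOP, where 5.45% of all tested genes were called higher, this held for 9 of 10 markers of microglia and leukocytes (4.20 to 4.50 FPKM summed in controls, 68.6 to 71.6 FPKM in 4xIOP). Of these markers Aif1, Tmem119, Ptprc, Itgam, Ly6c2 and S100a8 averaged under 0.5 FPKM in the controls and passed the filter through the 4xIOP libraries. They were bound to differ, so this count too is a description only. All 5 tested lens genes were called higher as well, from 0.549 to 2.60 FPKM to 28.7 to 62.3 FPKM, with Crygd and Mip at 0 in both 4xIOP control libraries. Of these 5 genes all but Cryaa averaged under 0.5 FPKM in the controls and passed the filter through the 4xIOP libraries, so they had to differ, and the count is a description only. In the same comparison 4 of 4 tested pigment epithelium markers were called lower, beside 0.693% of all tested genes. Of these, Rpe65 and Rgr averaged under 0.5 FPKM in 4xIOP and passed the filter through the controls, so they were bound to differ. Rod genes summed to between 9448 and 9874 FPKM in 4xIOP control and between 4668 and 7017 FPKM in 4xIOP. Of the 7, 6 were lower without overlap (list median -0.72), beside 12.7% of all tested genes. None was called by limma, 2 had an unadjusted p under 0.05 and voom called 3. In 18mo IOP the rod genes summed to between 11839 and 14157 FPKM against 15598 to 17499 FPKM without the elevation. At 3 months the sums were 20916 to 21658 FPKM with it and 21133 to 23966 FPKM without. Microglia and leukocyte markers summed to 14.5 to 24.1 FPKM in 3mo IOP against 7.03 to 9.25 FPKM in its controls. Of the 9 tested, 7 were higher without overlap, beside 28.6% of all tested genes. In 18mo IOP these markers summed to 28.5 to 59.0 FPKM against 22.1 to 24.6 FPKM, with 5 of 9 higher without overlap, beside 36.5% of all tested genes. None was called in either by limma or voom. An unadjusted p under 0.05 was found for 3 and 5 of them, and for 1169 and 1297 of all 13731 tested genes. Endothelial markers summed to 15.5 to 18.2 FPKM in 3mo IOP against 13.0 to 14.8 FPKM and to 106.8 to 113.9 FPKM in 18mo IOP against 76.1 to 80.1 FPKM, with none of 8 called by limma or voom and 0 and 1 at an unadjusted p under 0.05. In 4xIOP they summed to 65.8 to 69.0 FPKM against 30.7 to 38.3 FPKM, and 2 of 7 tested were called higher. Timp1 was called in all 3 of these comparisons, and the part of each cell type in its values was not tested. Of the 8 Muller glia genes, 1, 1 and 3 were called higher in 3mo IOP, 18mo IOP and 4xIOP, beside 0.568%, 0.117% and 5.45% of all tested genes. None of the 8 was called lower by limma, and the list medians were 0.26, 0.93 and 0.91. Gfap was called in each of the 3, by 3.44 (limma adjusted p = 0.027), 3.37 (adjusted p = 0.044) and 3.76 (adjusted p = 6e-07). Voom called no gene of this list in 3mo IOP or 18mo IOP. In 18mo IOP the Gfap call was also lost with a pseudocount of 0.1, median-of-ratios size factors, only the groups compared and a replicate block. Others on the list went the other way. In 4xIOP Glul, the glutamine synthetase, was at -1.12 (limma adjusted p = 0.15, called lower in 4 of 9 alternatives, voom among them) and Rlbp1, a retinaldehyde-binding protein, at -0.56 (adjusted p = 0.50), each below its controls without overlap, and both were also negative in 3mo IOP.

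The genes with the most similar profile were ranked by Pearson's r of log2(FPKM + 0.5) over the 8 libraries of the single series, among 13059 genes tested in both series. The 8 points share 4 groups and their depth, so the values only describe likeness. For Timp1 they were Tubb6 (0.99), Serpina3n (0.99), Bst2 (0.99), Parp9 (0.98) and Gfap (0.98), that is a tubulin, a secreted serpin, an interferon-responsive membrane protein, an ADP-ribosyltransferase family member and the intermediate filament of astrocytes and reactive Muller cells. For Adamts1 they were Aldh1l1 (1.00), an enzyme much used as an astrocyte marker, the stress-responsive transcription factor Atf3 (0.99), Carhsp1, Slc3a2 and Fermt2. For Mmp14 they included Plod1, Gnai2, Necap2 and Pbxip1, each at 0.99 or above. Such likeness was common, since 606 genes had r above 0.95 with Mmp14, 329 with Adamts1 and 29 with Timp1. In the repeated series, whose libraries did not enter the ranking, Serpina3n stood at a mean of 0.967 FPKM in controls and 203 FPKM in 4xIOP, and Atf3 at 3.24 and 17.6 FPKM. Of the other neighbours of Adamts1, Aldh1l1 stood there at 2.60 and 9.78 FPKM, Carhsp1 at 2.00 and 4.99 FPKM, Slc3a2 at 17.8 and 23.4 FPKM and Fermt2 at 4.61 and 5.01 FPKM.
Among the members themselves Timp2 and Mmp14 were the most alike over the 8 libraries (0.99), followed by Mmp14 and Adamts1 (0.97) and Timp2 and Adamts1 (0.95).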

How the data were processed

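RNA of bulk mouse retina (12 libraries, 6 groups of 2) was isolated with TRIzol, followed by strand-specific polyA libraries and NovaSeq sequencing. The authors mapped reads to mm10 with STAR (2.7.8a in the submitters' processing notes) and counted uniquely mapped tags in exons with HOMER, 1 isoform per locus. The deposited values are FPKM, scaled to the mapped tags of each library, 1 table per series, and no replicates were pooled. Mapped tags were recovered from the values, and 100% of the values checked came to whole reads (tolerance 0.07 reads). A floor of 3 reads was used, and intervals cover counting error only.

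The log2(FPKM + 0.5) values entered limma's lmFit and eBayes with a trend (limma 3.58.1, R 4.3.3), over 13731 genes in the 8 single-series libraries as 4 groups and over 13718 genes in the 4 repeated-series libraries. The tables were normalized and tested separately. The authors' own tests used DESeq2, which was not run here on FPKM. The fits were tested on simulated data. The 10 genes, the lists and the tests were chosen with earlier results of these data known. The rule for named genes was all 10 in every comparison, the 3 synapsin neighbours, at most the 3 called genes of the other lists with the largest change per comparison, and the 5 genes most like Timp1, Mmp14 and Adamts1 by Pearson's r. A gene of the other lists and a gene most like Mmp14 are not reported here, and the counts leave out the former. Other genes named were chosen after their values were seen. Alternatives were pseudocounts of 0.1 and 1, no filter or a stricter one (mean of 2 FPKM or more), quantile normalization, median-of-ratios size factors, removal of the length trend (splines with 5 degrees of freedom), only the 2 groups compared, a replicate block and voom on recovered reads, and each library was left out in turn, where a group left with 1 library is assumed to vary like the others.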

Additional observations from a re-analysis of the deposited data

How the results depend on the processing

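With 2 libraries a group the calls rest on few degrees of freedom. Of the values of the 8 tested genes under alternatives, 345 kept their direction and side of the threshold, 13 lost a call, 4 gained one and 8 changed sign. Most of the 345 were values not called in the main fit either. The 13 lost calls were those of Timp1 in 3mo IOP and 18mo IOP and of Mmp14 in 4xIOP. With a library left out, 16 values changed sign. In 3mo IOP (79 genes called, 1 of the 8) the counts were 9 and 0 without a filter, 21 and 1 with median-of-ratios size factors, 14 and 1 with quantile normalization, 125 and 2 with the length trend removed, 3 and 0 with voom, and 73 and 2 with only the groups compared; the left-out libraries gave 0 to 257 genes and 0 to 1 of the 8. In 18mo IOP (17 and 1) they were 0 and 0 with a pseudocount of 0.1, size factors, only the groups compared and voom, 1 and 0 without a filter, 4 and 0 with quantile normalization, 9 and 1 from a mean of 2 FPKM and 41 and 1 with the length trend removed; left-out libraries gave 0 to 144 genes and 0 to 2 of the 8. With age (3185 genes) left-out libraries gave 1176 to 4717 genes, and Timp2, Mmp14 and Adamts1 were called each time. In 4xIOP (843 genes) a mean of 2 FPKM gave 475. The interaction called 2 genes without a filter and 0 to 2 with a library left out.

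The replicate block gave 0 genes and 0 of the 8 called in 18mo IOP (Timp1 at 4.09, adjusted p = 0.063) and 53, 3133 and 864 genes in 3mo IOP, with age and in 4xIOP, where the calls of the 8 stayed at 1, 3 and 3. Deviations of same-numbered libraries correlated at -0.28, -0.53 and -0.29 in the 3mo, 18mo and repeated pairs. With 2 libraries a group, these values cannot decide whether same-numbered eyes come from the same animal. A crossed replicate block, chosen after seeing the data, called 0 genes and 0 of the 8 in 18mo IOP, 66 in 3mo IOP, 3210 with age and 894 in 4xIOP.

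Signs changed for small values. Mmp9 in 3mo IOP was -0.048 with size factors, -0.10 with quantile normalization and -0.056 with voom, and Mmp15 in 18mo IOP was -0.024, -0.085 and -0.028 in that order. With a library left out, Mmp9 ran from -0.77 to 0.10 and Mmp15 from -0.021 to 0.16 in 18mo IOP, and Mmp9 from -0.14 to 0.079 with age. The interaction of Adamts1 was -0.12 with a pseudocount of 0.1 and -0.15 with voom. With a library left out the interactions ran from -0.45 to 0.78 for Adamts1, -1.40 to 0.42 for Timp1, -0.35 to 0.12 for Mmp2, -0.48 to 0.10 for Mmp14 and -0.42 to 0.014 for Mmp15. The cause was not tested.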
